A study of Mus musculus with 12 samples.

Results

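The genes described here are the nuclear genes of respiratory chain complexes II, III and IV, of cytochrome c and of ATP synthase (complex V), chosen by symbol. They are all genes of the count table whose symbol begins with Cox and a digit, Uqcr or Atp5, or is Sdha, Sdhb, Sdhc, Sdhd, Cyc1 or Cycs, without symbols marked -ps. This rule found 61 of 35498 genes, with 60 distinct symbols because Atp5o labels 2 identifiers. Of them 4 belong to complex II, 9 to complex III, 1 is Cycs, 29 belong to complex IV and 18 to complex V. They comprise 40 subunits, 7 isoforms known from other tissues, 10 assembly factors, 1 electron carrier, 1 gene of another kind (Atp5s) and 2 that are typed as processed pseudogenes.

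The inner mitochondrial membrane holds these complexes. Complex II passes electrons from succinate to ubiquinone, complex III passes them to cytochrome c, complex IV passes them to oxygen, and complex V makes ATP with the proton gradient that complexes III and IV help to build. Complexes III, IV and V are built from subunits of both genomes: a few core membrane subunits are encoded in mitochondrial DNA and made inside the organelle, and the rest are made from nuclear mRNAs on cytosolic ribosomes and imported. Complex II is wholly nuclear-encoded. Hepatocytes are rich in mitochondria, and some nuclear mRNAs for mitochondrial proteins are translated at the mitochondrial surface.

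The livers came from 6 male C57BL/6N mice, aged 9 to 12 weeks and sampled 3 h after a meal that ended an overnight fast, and their poly(A) RNA was sequenced. The WAM group (wrappER-associated mitochondria, that is, mitochondria recovered together with rough endoplasmic reticulum) had 6 libraries. The lysate group also had 6 libraries, 1 of each kind per mouse, and was liver homogenate from which low-speed spins had removed nuclei and debris. Each WAM fraction was prepared from such a lysate, so the comparison asks how each mRNA is distributed between the fraction and its starting material. Nothing else differed between the groups by their labels. Total estimated counts were 8344196 to 9712455 in WAM libraries and 7400274 to 12024128 in lysate libraries. Mitochondrially encoded genes made up 12.5% to 23.2% of counts in WAM and 2.19% to 3.30% in lysates. The 6 marker genes of hepatocytes made up 6.40% ± 1.71 of counts in WAM and 5.58% ± 1.10 in lysates (SD, n = 6 each). Mouse 5 stood apart in macrophage markers, at 0.0964% of its WAM counts and 0.0729% of its lysate counts, against at most 0.0395% of WAM counts and 0.0310% of lysate counts in the other mice. On the TMM scale 10 of the 11 macrophage markers were called higher in WAM, with a median log2 fold change of 1.58. So were 5 of the 6 hepatocyte markers, with a median of 1.23, against 29.5% of all tested genes. Their part in the results below was not tested. In bulk fractions, fewer cells of a type and less RNA per cell cannot be told apart.

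Of the 61 genes, 51 passed the filter on low counts and were tested. Levels are given as CPM, counts scaled to a common library size, after TMM scaling, which sets the typical mRNA to no change; the median log2 fold change over all 11181 tested genes was -0.08. A gene is called when its adjusted p is under 0.05 in edgeR's quasi-likelihood test, adjusted by Benjamini-Hochberg over all tested genes. Of the 51, 33 were called higher in WAM and 2 lower, while 16 were not called. The background was 29.5% called higher and 28.8% called lower, or 58.2% in all, over all tested genes. Among the 51 genes the shares were 64.7% and 3.92%, and the median log2 fold change was 0.46. With the mouse as a block 38 were called higher and 3 lower, against 33.5% and 36.2% of all tested genes. This direction is relative to the typical mRNA. Scaled to library totals, which shifts the median of all genes by -1.11, 1 of the 51 was called higher and 44 lower. The same totals gave 503 genes higher and 8652 lower over all genes. Limma on TPM plus 1, shifted back to the same median of all genes, called 13 of the 51 higher and 5 lower. Over all 11181 genes it called 3130 higher and 3314 lower, so the excess of higher calls was not seen in that setting. With TPM plus 0.1, shifted in the same way, 26 of the 51 were called higher and 0 lower, against 2862 and 2104 over all genes. The libraries of the 2 groups did not overlap in CPM for 28 of the 51 genes (54.9%), against 34.5% of all tested genes. The median log2 ratio of the 51 genes was positive in each mouse, between 0.29 in mouse 1 and 0.54 in mouse 6.

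The genes were ordered by complex in their fold change. Complex IV was highest, with 17 of 20 tested genes called higher, 0 lower and a median of 0.66 on the log2 scale. In complex III 6 of 9 were called higher, with a median of 0.59. In complex V 8 of 17 were called higher and 2 lower, with a median of 0.24. In complex II 1 of 4 was called higher, with a median of 0.04, and Cycs stood at 0.36. Scaled to library totals, without taking off the shift of all genes, these medians were -0.45 for complex IV, -0.51 for complex III, -0.87 for complex V and -1.06 for complex II. The change of scale moved all genes by about the same amount, so the unchanged order of the complexes is no separate evidence for it. The sign was set by the scaling. Values given relative to the median gene were shifted so that the median of all genes kept its main value, -0.08 and not 0. On that scale limma on TPM plus 1 left complexes IV and III above 0 (0.33 and 0.25) and complex II at -0.22. Complex V, at -0.08, lay at about the median of all genes. With TPM plus 0.1 the medians were 0.63 for complex IV, 0.58 for complex III, 0.14 for complex V and 0.09 for complex II. With the mouse as a block, 19 genes of complex IV, 6 of complex III, 10 of complex V and 2 of complex II were called higher.

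**Figure D1:**
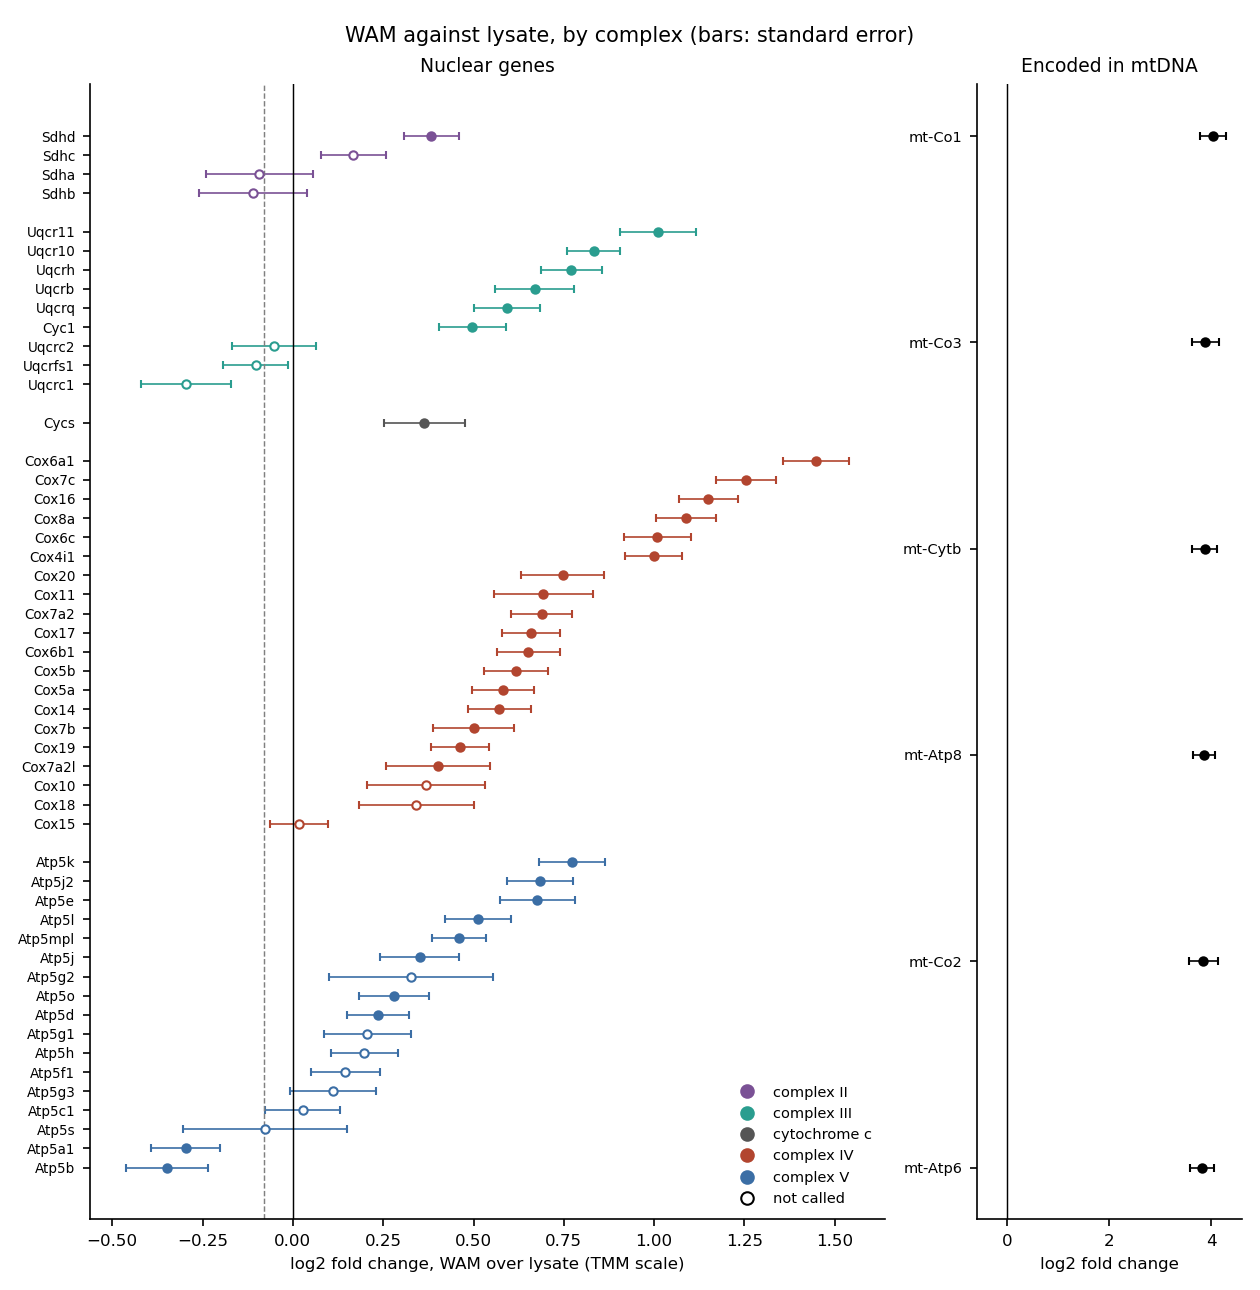
Log2 fold change of WAM over lysate on the TMM scale for the 51 tested nuclear genes, by complex (left), and for the 6 partners encoded in mitochondrial DNA (right, on a wider axis). Bars are standard errors, open points were not called, and the dashed line is the median of all tested genes. Complex IV reaches from Cox15 at 0.02 to Cox6a1 at 1.45, and Atp5a1 and Atp5b of complex V are called lower. Scaled to library totals, 44 of the 51 are called lower and 1 higher.

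Complex IV held the largest fold changes of these genes. All 10 of its tested structural subunits were called higher; the median of their log2 fold changes was 0.84 and none lay under 0.50. With limma on TPM plus 1, relative to the median gene, 7 of the 10 were called. Cox5a, Cox7b and Cox5b lost the call, at 0.18, 0.25 and 0.32 (adjusted p = 0.269, 0.132 and 0.0502). With TPM plus 0.1 all 10 were called. Cox6a1 (ENSMUSG00000041697, chromosome 5, 115345642 to 115348981, GRCm38), the liver-type isoform of subunit 6a, led them. It had 279.3 to 325.6 CPM in WAM (median 290.2), against 89.7 to 123.7 CPM in lysates (median 110.5). Every WAM library lay above every lysate library, and the log2 fold change was 1.45 (SE 0.09, adjusted p = 4.74e-08 by edgeR's quasi-likelihood test). Cox6a1 was also the 1 gene called higher when libraries were scaled to their totals, at 0.34 (SE 0.10, adjusted p = 0.0069 in the same edgeR test).

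The other membrane subunits followed. Cox7c, a small subunit, reached 1.25 (SE 0.08); 55.7% of its 31-base words occur in other genes, but Gm10012, which shares most of them, had 3.90 counts over the WAM libraries and 1.69 over the lysates, against 8599 and 7291 for Cox7c. Cox8a, the liver-type isoform of subunit 8, had 200.9 to 272.6 CPM in WAM (median 233.8), against 106.3 to 116.6 CPM in lysates (median 110.2). Its groups did not overlap, and its log2 fold change was 1.09 (SE 0.08, adjusted p = 1.26e-07 by edgeR). Cox6c, the most abundant gene of complex IV per length in lysates, had 208.5 to 248.3 CPM in WAM (median 225.8), against 89.5 to 127.6 CPM in lysates (median 111.9). It too had no overlap, at 1.01 (SE 0.09, adjusted p = 6.93e-07 by edgeR). Cox4i1, the main isoform of the large subunit 4, had 349.3 to 385.1 CPM in WAM (median 360.1), against 155.1 to 198.2 CPM in lysates (median 184.2). Its WAM libraries had a coefficient of variation of 3.31%, the smallest among the 51 genes, and its log2 fold change was 1.00 (SE 0.08, adjusted p = 1.85e-07 by edgeR). Cox7a2, the liver-type isoform of subunit 7a, was smaller in its change, with 113.2 to 148.4 CPM in WAM (median 133.2), against 71.4 to 89.5 CPM in lysates (median 82.4). The groups did not overlap, and the log2 fold change was 0.69 (SE 0.08, adjusted p = 9.01e-06 by edgeR). Cox7b ended the membrane subunits at 0.50. The 7 membrane subunits had a median of 1.01, the 2 matrix-side subunits Cox5a and Cox5b stood at 0.58 and 0.62, and Cox6b1, which faces the intermembrane space and sits where cytochrome c docks, at 0.65.

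The 10 assembly genes of the list, which insert haem and copper or hold early intermediates in roles known mainly from yeast and human cells, spanned a wide range. Of them 7 were called higher and 0 lower, with a median of 0.52. With limma on TPM plus 1, relative to the median gene, 1 of the 7 calls held, and with TPM plus 0.1, 5 held. Cox16, an assembly factor, was highest at 1.15 (SE 0.08). Of its 31-base words 88.8% also lie in Gm20498, a gene that overlaps it, and with both counted together the log2 fold change was 0.93 (adjusted p = 1.27e-07 by edgeR, an alternative added after the data were seen). Cox20, a chaperone of subunit 2, stood at 0.75, the copper chaperones Cox17 and Cox19 at 0.66 and 0.46, the copper insertion factor Cox11 at 0.69, and Cox14 at 0.57. Cox20 shares 70.1% of its words with Hnrnpu and Cox11 shares 52.8% with Tom1l1. Hnrnpu had 3879 counts over the WAM libraries and 11102 over the lysates, against 704 and 861 for Cox20. Tom1l1 had 596 and 1282, against 399 and 499 for Cox11. How far the fold changes of Cox20 and Cox11 depend on the split of shared reads was not tested. The other 3 assembly factors were not called. Cox10, haem O synthase, had a log2 fold change of 0.37 and was not called (adjusted p = 0.0664; 0.0057 with the mouse as a block, both by edgeR), and Cox18, an insertase for subunit 2, had 0.34 (adjusted p = 0.0804; 0.0396 with the block). In edgeR's quasi-likelihood test without the WAM library of mouse 1 or of mouse 2, Cox10 had an adjusted p of 0.0175 and 0.0293. Without the WAM library of mouse 5, Cox18 had 0.0124. Cox15, haem A synthase, had 22.9 to 29.9 CPM in WAM (median 27.7), against 24.5 to 29.5 CPM in lysates (median 26.5). These groups overlapped throughout, and its log2 fold change of 0.02 (SE 0.08, adjusted p = 0.873 by edgeR) took either sign when single libraries were left out. Cox7a2l, the supercomplex assembly factor, was called at 0.40 (SE 0.14, adjusted p = 0.0283 by edgeR) with overlapping groups. That call was lost without the WAM library of mouse 4 or the lysate of mouse 1, 4 or 6 (adjusted p = 0.05 to 0.0569 by edgeR), and its sign turned, to -0.03, with limma on TPM plus 1. It was also lost with limma on TPM plus 0.1 (0.29, adjusted p = 0.147).

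**Figure D2:**
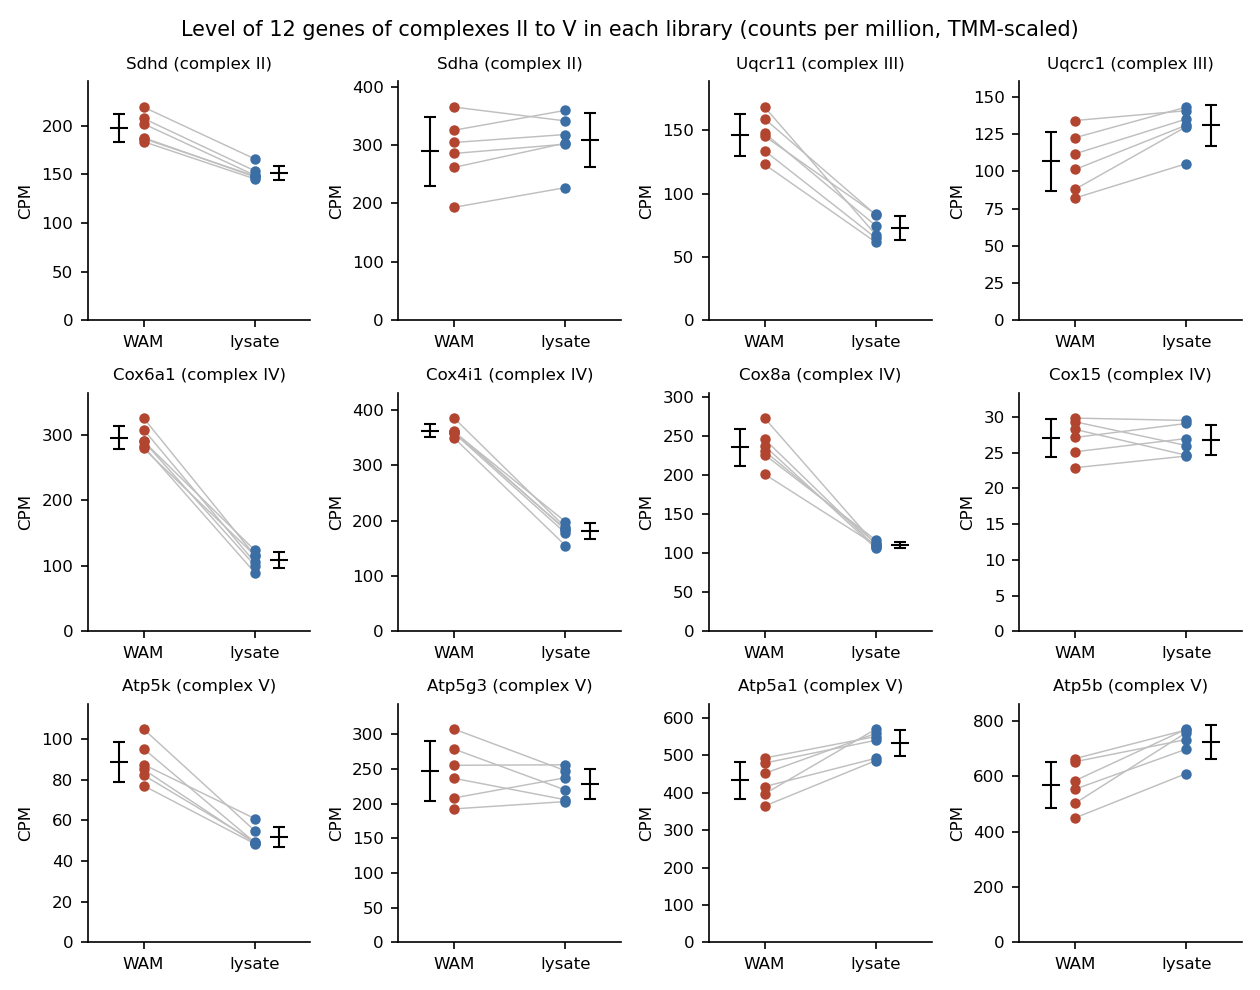
CPM of 12 genes in each library, WAM left and lysate right, with grey lines joining the libraries of a mouse and bars giving the mean and SD over 6 libraries. Cox6a1 lies at 279.3 to 325.6 CPM in WAM, against 89.7 to 123.7 CPM in lysates, while Atp5b lies at 449.6 to 663.7 CPM in WAM, against 609.9 to 770.3 CPM in lysates. The scale is TMM; scaled to library totals, Cox6a1 is called higher, Cox4i1, Cox8a and Uqcr11 are not called and the other 8 are called lower.

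Isoforms of complex IV known from other tissues were near or at 0 counts. Cox4i2, the subunit 4 isoform known from lung, had 0 counts over all WAM libraries and 2 over all lysates. Cox6a2 and Cox8b, the heart and skeletal muscle isoforms, had 8 and 4 counts over the WAM libraries and 20 and 11 over the lysates. Most of these came from mouse 3, in which Cox6a2 reached 0.62 CPM in WAM and 1.44 CPM in lysate, and Cox8b 0.62 CPM in WAM and 0.80 CPM in lysate. The 9 muscle markers were likewise highest in mouse 3, at 0.0026% of WAM counts and 0.0095% of lysate counts, and none of the 9 was tested; their part in these counts was not tested. Cox7a1, the muscle isoform of subunit 7a, had 0.41 to 2.03 CPM in WAM (median 1.02), against 0.32 to 1.52 CPM in lysates (median 0.52). Those ranges overlap, and no fold change is given. The testis isoforms Cox8c and Cox7b2 had 0 counts in every library, as did Cox20b, one of the genes typed as pseudogenes. Cox6b2, also a testis isoform, had 21 counts over the WAM libraries and 30 over the lysates, and the other pseudogene, Cox6c2, had 0 and 1.03.

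In complex III the small subunits and cytochrome c1 were called higher, and the core proteins and the Rieske protein were not. Uqcr11 (ENSMUSG00000020163, chromosome 10, 80402997 to 80406830), the smallest membrane subunit by coding length, had 123.0 to 168.2 CPM in WAM (median 146.4), against 61.6 to 83.5 CPM in lysates (median 71.1). Its groups did not overlap, and its log2 fold change was 1.01 (SE 0.11, adjusted p = 1.97e-06 by edgeR). Uqcrq, another small membrane subunit and the most abundant of the complex per length, had 193.8 to 249.1 CPM in WAM (median 199.9), against 122.2 to 152.9 CPM in lysates (median 136.8). The log2 fold change of 0.59 (SE 0.09, adjusted p = 7.57e-05 by edgeR) again came without overlap. Uqcr10 at 0.83, the hinge protein gene Uqcrh at 0.77 and Uqcrb at 0.67 were also called higher. Cyc1, the gene of cytochrome c1, was the 1 nuclear gene of a catalytic subunit of the complex that was called. It had 130.3 to 170.2 CPM in WAM (median 152.3), against 90.6 to 117.3 CPM in lysates (median 107.8). It did not overlap, at 0.50 (SE 0.09, adjusted p = 4.14e-04 by edgeR). With limma on TPM plus 1, relative to the median gene, Cyc1, Uqcrq and Uqcrb lost the call, at 0.15, 0.29 and 0.25 (adjusted p = 0.365, 0.065 and 0.184). With TPM plus 0.1 all 6 higher calls of the complex held.

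The Rieske iron-sulphur protein gene Uqcrfs1 and the core protein genes had log2 fold changes under 0. Uqcrfs1 stood at -0.10 and Uqcrc2 at -0.05, neither called. With limma on TPM plus 1, relative to the median gene, both were called lower, at -0.51 and -0.45 (adjusted p = 0.0105 and 0.0352), while Uqcrc2 turned to 0.0059 in edgeR without the WAM library of mouse 5. Uqcrc1 (ENSMUSG00000025651, chromosome 9, 108936633 to 108949623), core protein 1, had 82.1 to 134.0 CPM in WAM (median 106.5), against 105.1 to 143.0 CPM in lysates (median 132.9). The ranges overlapped, yet the WAM value was below the lysate value in 6 of 6 mice. Its log2 fold change of -0.29 (SE 0.12) was not called without pairing (adjusted p = 0.0551 by edgeR) and was called lower with the mouse as a block (-0.31, adjusted p = 0.00119). It was also called lower without the WAM library of mouse 1 or 2 or the lysate of mouse 5 (-0.36, -0.36 and -0.35). The lysate of mouse 5 was its lowest lysate, at 105.1 CPM against at least 129.9 in the others.

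To show the extremes of each complex, the first 45 coding bases of the genes with the highest and the lowest fold change are printed from GENCODE M21 (GRCm38), 5′ to 3′ along the mRNA, with the start codon in capitals.
Sdhd, highest of complex II: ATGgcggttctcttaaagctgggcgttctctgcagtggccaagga
Sdhb, lowest of complex II: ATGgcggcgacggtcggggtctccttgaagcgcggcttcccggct
Uqcr11, highest of complex III: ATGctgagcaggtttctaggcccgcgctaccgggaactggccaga
Uqcrc1, lowest of complex III: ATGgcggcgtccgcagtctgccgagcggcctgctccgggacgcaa
Cox6a1, highest of complex IV: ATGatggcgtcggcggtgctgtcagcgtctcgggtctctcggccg
Cox15, lowest of complex IV: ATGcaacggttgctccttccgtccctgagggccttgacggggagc
Atp5k, highest of complex V: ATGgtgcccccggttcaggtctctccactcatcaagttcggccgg
Atp5b, lowest of complex V: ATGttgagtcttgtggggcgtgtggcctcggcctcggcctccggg
These stretches were 55.6%, 62.2%, 68.9% and 62.2% G and C in the highest genes (Sdhd, Uqcr11, Cox6a1 and Atp5k) and 71.1%, 73.3%, 64.4% and 68.9% in the lowest (Sdhb, Uqcrc1, Cox15 and Atp5b). The lowest gene had more G and C in complexes II, III and V and less in complex IV.

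Complex V was divided by the part of the enzyme. The F1 head, which makes ATP in the matrix, gave the 2 genes called lower. Atp5b (ENSMUSG00000025393, chromosome 10, 128083273 to 128090391), the catalytic beta subunit, had 449.6 to 663.7 CPM in WAM (median 568.8), against 609.9 to 770.3 CPM in lysates (median 745.3). The ranges overlapped and the WAM value was lower in 6 of 6 mice; the log2 fold change was -0.35 (SE 0.11, adjusted p = 0.0171 by edgeR). Atp5a1 (ENSMUSG00000025428), the alpha subunit, had 364.7 to 493.1 CPM in WAM (median 434.4), against 486.3 to 570.5 CPM in lysates (median 545.7). Its ranges just overlapped, it was lower in 6 of 6 mice, and its log2 fold change was -0.30 (SE 0.10, adjusted p = 0.0170 by edgeR). Relative to the median gene, neither call held with library totals (Atp5b adjusted p = 0.0705, Atp5a1 0.0795 by edgeR) or with limma on TPM plus 0.1, where Atp5b stood at 0.02 and Atp5a1 at -0.07. The Atp5b call was also lost with limma on TPM plus 1 (-0.31, adjusted p = 0.0595). In the central stalk the gamma subunit gene Atp5c1 stood at 0.03 and was not called, while the delta subunit gene Atp5d at 0.24 and the epsilon subunit gene Atp5e at 0.68 were called higher. The Atp5d call was lost with library totals (adjusted p = 0.122), with no filter on low counts (0.127) and without the lysate of mouse 3, 4 or 6 (adjusted p = 0.0519, 0.0624 and 0.0607 by edgeR), and with limma on TPM plus 1 its sign turned, to -0.18, while Atp5e lost its call (0.26, adjusted p = 0.119).

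The 4 small membrane subunits, which lie beside the rotor and hold dimers of the enzyme together, were all called higher, with a median of 0.60. Atp5k (ENSMUSG00000050856, chromosome 5, 108433244 to 108434448), subunit e, had 77.0 to 104.8 CPM in WAM (median 86.2), against 48.4 to 60.8 CPM in lysates (median 49.2). The groups did not overlap, and the log2 fold change was 0.77 (SE 0.09, adjusted p = 6.55e-06 by edgeR). Subunit f (Atp5j2) stood at 0.68, subunit g (Atp5l) at 0.51 and the small proteolipid gene Atp5mpl at 0.46. Atp5l and Atp5mpl lost the call with limma on TPM plus 1, relative to the median gene, at 0.12 and 0.04 (adjusted p = 0.477 and 0.796). All 4 small membrane subunits were called with TPM plus 0.1. In the peripheral stalk, which keeps the head from turning, Atp5j at 0.35 and Atp5o at 0.28 were called higher, while Atp5h at 0.20 and Atp5f1 at 0.14 were not. Atp5h was called with the mouse as a block (adjusted p = 0.0241 by edgeR). The Atp5o call was lost in edgeR without the lysate of mouse 5 (adjusted p = 0.053) and with no filter on low counts (0.0885). It was also lost with library totals, relative to the median gene (adjusted p = 0.085 by edgeR), and with limma on TPM plus 0.1 (adjusted p = 0.24). With limma on TPM plus 1 Atp5o turned to -0.08. The Atp5j call was lost with limma on TPM plus 1 (0.03, adjusted p = 0.896) and on TPM plus 0.1 (adjusted p = 0.0865). Of the 31-base words of Atp5l, 85.4% occur in other genes. For Atp5o and Atp5h the share was 63.2% and 60.3%. Gm10221, which shares the largest part with Atp5l, had 0 counts over the WAM libraries and 35.5 over the lysates, against 5085 and 7172 for Atp5l. The gene sharing the largest part with Atp5o, Gm5436, had 0 and 0, and the one for Atp5h, Gm10250, had 0 and 2.52. The second identifier labelled Atp5o (ENSMUSG00000116933) had 0 counts over the WAM libraries and 0.64 over the lysates. Atp5s, coupling factor s, had few counts (133 over the WAM libraries and 283 over the lysates) and a log2 fold change of -0.08, not called.

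Subunit c, which forms the rotor ring, is encoded by 3 nuclear genes whose products differ in the leader that is cut off after import and share the mature protein. None of them was called: Atp5g1 stood at 0.21, Atp5g2 at 0.33 and Atp5g3 at 0.11. A stretch of 60 bases from the shared mature part is printed below in lower case, with the 14 positions at which the 3 genes differ in capitals, to show how far reads can tell them apart. Sequences are from GENCODE M21 (GRCm38), along the mRNA.
Atp5g1, chromosome 11: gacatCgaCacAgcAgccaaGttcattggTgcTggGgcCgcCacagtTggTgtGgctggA
Atp5g2, chromosome 15: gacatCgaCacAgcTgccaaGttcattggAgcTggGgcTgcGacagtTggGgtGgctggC
Atp5g3, chromosome 2: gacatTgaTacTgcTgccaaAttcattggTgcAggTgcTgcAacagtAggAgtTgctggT
Over the last 225 coding bases, Atp5g2 was 84.9% and Atp5g3 80.0% identical to Atp5g1. Of the words of Atp5g2, 87.7% also occur in the pseudogene Gm10175, to which the deposited counts gave 2995 in the WAM libraries and 4956 in the lysates, against 318 in WAM and 510 in lysates for Atp5g2. Levels of Atp5g2 on its own are therefore uncertain. Summed with Gm10175 its log2 fold change was 0.30 (adjusted p = 0.0127 by edgeR, an alternative added after the data were seen).

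Atp5g3 was the main subunit c gene in both fractions. It had 192.3 to 307.2 CPM in WAM (median 245.7), against 202.8 to 255.8 CPM in lysates (median 228.3). Atp5g1 had 76.4 to 132.3 CPM in WAM (median 107.6), against 81.7 to 102.0 CPM in lysates (median 89.8). Atp5g2 had 7.03 to 10.9 CPM in WAM (median 8.42), against 4.62 to 11.5 CPM in lysates (median 6.21). All 3 overlapped between the groups. Of their summed level, Atp5g3 took 68.3% ± 1.01 in WAM and 69.8% ± 1.88 in lysates (SD, n = 6 each; by a 2-sided exact permutation test p = 0.0996, adjusted p = 0.234 over the 3 genes). Atp5g1 took 29.2% ± 0.92 in WAM and 28.1% ± 1.56 in lysates (exact permutation p = 0.156, adjusted p = 0.234), higher in WAM in 4 of 6 mice. Atp5g2 took 2.52% ± 0.81 in WAM and 2.10% ± 0.64 in lysates (exact permutation p = 0.331, adjusted p = 0.331). With the counts of Gm10175 added to Atp5g2, its share was 20.7% ± 4.56 in WAM and 18.6% ± 0.61 in lysates. The differences, WAM minus lysate, were then 0.46 points for Atp5g1, 2.06 for Atp5g2 and -2.51 for Atp5g3 (exact permutation adjusted p = 0.641, 0.639 and 0.292), against 1.14, 0.42 and -1.56 points without it. Without the lysate of mouse 3, the shares of Atp5g1 and Atp5g3 differed by 1.64 and -2.11 points with an exact permutation adjusted p of 0.0455 each. With the mouse as a block Atp5g1 was called higher (adjusted p = 0.0392 by edgeR), as it was without the WAM library of mouse 5 (0.28, adjusted p = 0.031). Atp5g2 was called without the lysate of mouse 2 (0.52, adjusted p = 0.0323 by edgeR).

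**Figure D3:**
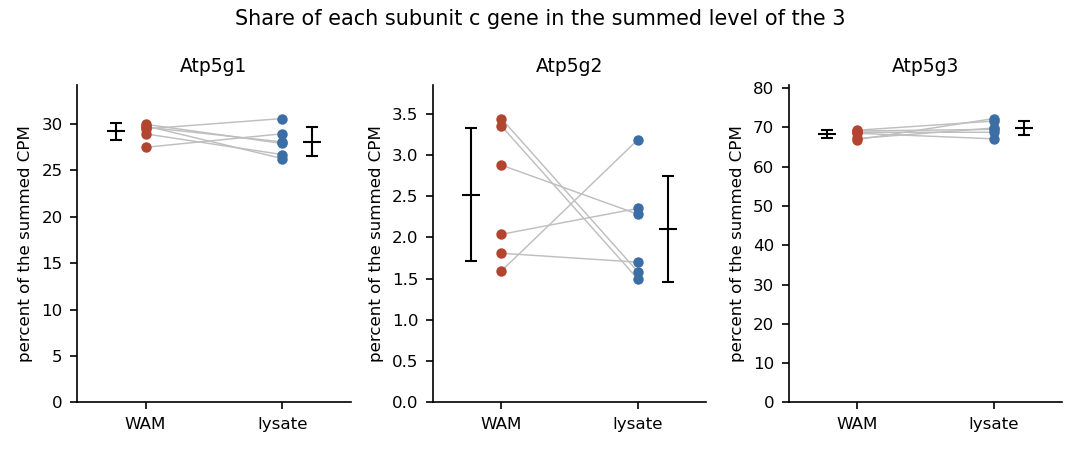
Share of Atp5g1, Atp5g2 and Atp5g3 in their summed CPM in each library, WAM left and lysate right, with lines joining the libraries of a mouse and bars giving mean and SD over 6 libraries. Atp5g3 holds 68.3% in WAM and 69.8% in lysates, and all 3 genes overlap between the groups.

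In complex II 1 of 4 genes was called higher, against 29.5% of all tested genes. It was Sdhd, an anchor that helps to hold the haem and the most abundant gene of the complex per length. It had 183.7 to 219.2 CPM in WAM (median 194.9), against 145.4 to 165.9 CPM in lysates (median 148.7). The groups did not overlap, and the log2 fold change was 0.38 (SE 0.08, adjusted p = 5.95e-04 by edgeR), which turned to -0.02 with limma on TPM plus 1. The Sdhd call was also lost with limma on TPM plus 0.1 (0.30, adjusted p = 0.0797). Sdhc, the other anchor, stood at 0.17 and was not called (adjusted p = 0.121 by edgeR); it was called with the mouse as a block (adjusted p = 0.0427) and without the WAM library of mouse 5 (0.0494). The flavoprotein gene Sdha stood at -0.09. Sdhb, the iron-sulphur subunit, had 69.1 to 129.6 CPM in WAM (median 95.7), against 79.3 to 126.6 CPM in lysates (median 103.4). The lysate range lies within the WAM range, and the log2 fold change of -0.11 (SE 0.15, adjusted p = 0.543 by edgeR) did not exceed its error. Sdhb was called lower, at -0.52 (adjusted p = 0.0274), with limma on TPM plus 1 relative to the median gene. Cycs, the soluble carrier between complexes III and IV, had 75.7 to 110.2 CPM in WAM (median 94.1), against 61.7 to 83.2 CPM in lysates (median 75.0). Its ranges overlapped, it was higher in 6 of 6 mice, and its log2 fold change of 0.36 (SE 0.11, adjusted p = 0.0123 by edgeR) turned to -0.03 with limma on TPM plus 1. The Cycs call was also lost with limma on TPM plus 0.1 (0.27, adjusted p = 0.184).

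The place of the protein and the length of its coding sequence were then set beside the fold changes. Over all tested genes 29.5% were called higher and 28.8% lower. Of 16 tested genes whose proteins lie on the matrix side, 7 were called higher and 2 lower, with a median of 0.11. Of 30 with membrane proteins 21 were called higher and 0 lower, with a median of 0.54. All 5 with proteins of the intermembrane space were called higher, with a median of 0.65. Coding length ordered the genes as well. The 26 genes with a coding sequence of at most 402 bases, the median, were all called higher, with log2 fold changes from 0.35 for Atp5j to 1.45 for Cox6a1. With limma on TPM plus 1, relative to the median gene, 12 of these 26 were called higher and 14 lost the call; with TPM plus 0.1, 22 were called. Of the 25 longer ones 7 were called higher, 2 were called lower and 16 were not called, with a median of 0.17. With limma on TPM plus 1, 1 was called higher and 5 lower. That alternative also left 0 of the 16 matrix-side genes, 11 of the 30 membrane genes and 2 of the 5 intermembrane genes called higher. Over all 11181 tested genes it called 3130 higher and 3314 lower. With TPM plus 0.1, 4 of the 25 longer genes were called higher and 0 lower, with 2862 higher and 2104 lower over all genes. Of the matrix-side, membrane and intermembrane genes it left 4, 19 and 3 called higher. Across the 51 genes, Spearman's rho between fold change and coding length was -0.73 (-0.68 with limma on TPM plus 1); it was -0.90 over 9 genes of complex III, -0.87 over 17 of complex V and -0.44 over 20 of complex IV. These points share libraries, so the rhos are descriptions. The longer genes called higher were Cox4i1 with 507 coding bases, Cox11 with 825, Cyc1 with 975, Atp5o, Atp5d, Sdhd and Cox5a.

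Short mRNAs in general were also higher on the TMM scale. Over all 11181 tested genes, rho between fold change and the effective length implied by counts and TPM was -0.35, and over the 51 genes it was -0.72. In the shortest of 4 equal bins of all genes by that length, which held 45 of the 51, the median log2 fold change was 0.51 for these 45 and 0.25 for the other genes. How much of the difference between complexes, or between places of the protein, goes with length was not tested.

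**Figure D4:**
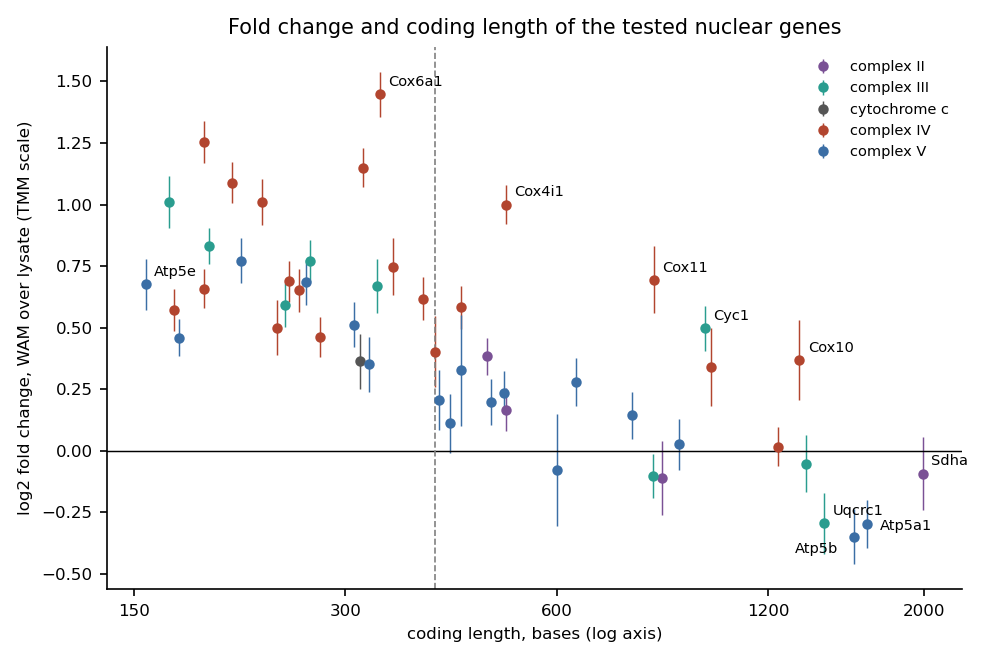
Log2 fold change of WAM over lysate on the TMM scale against coding length in bases (log axis) for the 51 tested genes, with standard errors. The dashed line marks the median of 402 bases. All genes at or left of it were called higher, between 0.35 and 1.45, and the 5 longest genes lie below 0. With limma on TPM plus 1, 12 of these 26 are called higher, and with TPM plus 0.1, 22 are. With library totals 44 of the 51 are called lower.

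The partners of these proteins encoded in mitochondrial DNA moved on another scale. mt-Cytb of complex III, mt-Co1, mt-Co2 and mt-Co3 of complex IV and mt-Atp6 and mt-Atp8 of complex V were all called higher, with log2 fold changes from 3.82 to 4.03. mt-Co1 had 55020 to 108200 CPM in WAM (median 79410), against 3825 to 6915 CPM in lysates (median 4748). The groups did not overlap, and the log2 fold change was 4.03 (SE 0.26, adjusted p = 4.74e-08 by edgeR). The lowest of the 6, mt-Atp6 at 3.82, lay above Cox6a1 by more than 2 on the log2 scale (SE of the 6 from 0.22 to 0.28). Differences among the 6 were not tested, and these errors do not measure them, since the 6 genes share much of the spread among libraries. Together the 6 took 11.2% ± 2.64 of counts in WAM and 1.61% ± 0.25 in lysates (SD, n = 6 each).

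As a share of all counts, the nuclear genes had less in WAM. All 61 together took 0.503% ± 0.091 of counts in WAM and 0.853% ± 0.053 in lysates (SD, n = 6 each), a ratio of 0.59, and were lower in 6 of 6 mice. With mitochondrially encoded genes left out of the total, they took 0.611% in WAM and 0.876% in lysates, a ratio of 0.70. Complex V had a ratio of 0.48, with 0.196% in WAM and 0.406% in lysates, complex II had 0.49 and complex III 0.62. By TPM the ratio was 0.44 for complex V and 0.40 for complex II, so which of them was lower turned with the measure. Complex IV differed from these: it took 0.162% ± 0.021 in WAM and 0.191% ± 0.010 in lysates, a ratio of 0.85, was lower in 5 of 6 mice, and came to a ratio of 1.01 with mitochondrially encoded genes left out, higher in 3 mice and lower in 3. By TPM, also with mitochondrially encoded genes left out, the ratio of complex IV was 0.86, lower in 6 of 6 mice. No p is given for these sums, since the genes were chosen as a list.

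**Figure D5:**
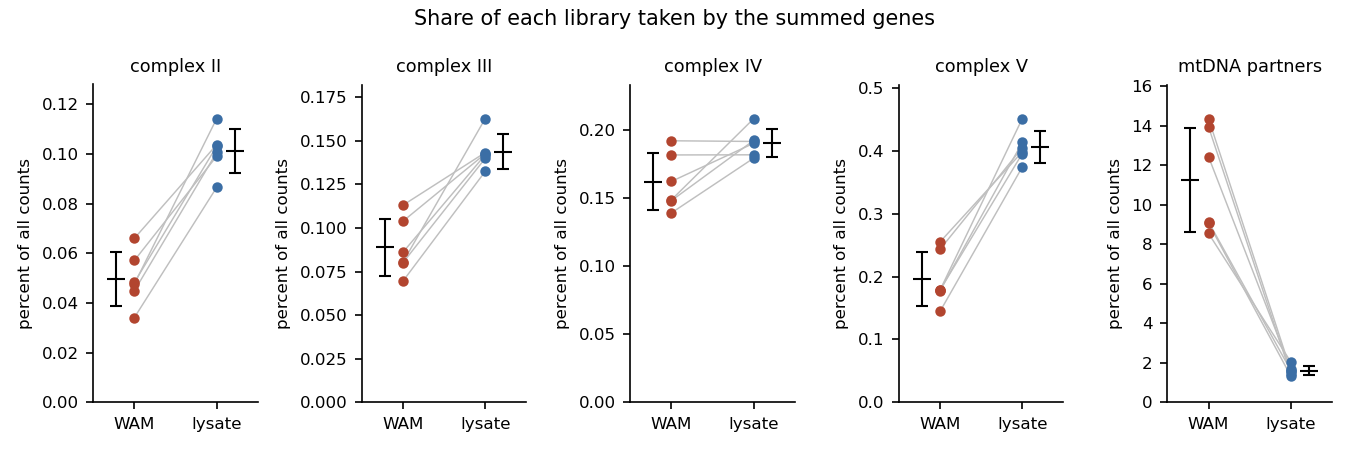
Percent of all counts taken by the summed genes of each nuclear complex, and by the 6 partners encoded in mitochondrial DNA, in each library, WAM left and lysate right, with lines joining the libraries of a mouse and bars giving mean and SD over 6 libraries. Complexes II, III and V are lower in WAM in all 6 mice, complex IV in 5 of 6, and the mitochondrially encoded partners are higher in all 6.

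Per transcript length, the order of levels also shifted. In WAM, Atp5b at 571 ± 121 TPM and Cox6a1 at 524 ± 78 TPM stood first and second by their means. Cox6c, Uqcrq and Cox4i1 followed at 487 ± 93, 480 ± 94 and 462 ± 49 TPM. In lysates, Atp5b stood alone at 1531 ± 64 TPM (SD, n = 6), followed by Uqcrq at 853 ± 57 and Atp5g3 at 852 ± 65, and Cox6a1 was at 558 TPM. Differences between genes within a library were not tested, so the order is that of the means.

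Genes of the same biology outside the name rule were read from further lists, beside a background of 29.5% called higher and 28.8% lower over all tested genes. Of 46 tested nuclear complex I genes (symbols beginning Nduf) 31 were called higher and 3 lower, and their median was 0.62 on the log2 scale, from Ndufs1 at -0.43 to Ndufa13 at 1.36. Of 78 mitochondrial ribosomal protein genes 42 were called higher and 4 lower, with a median of 0.30, from Mrps31 at -0.44 to Mrpl54 at 1.09. Of 34 tested assembly and regulatory genes of complexes II to V that the names miss, 19 were called higher and 4 lower, with a median of 0.26. Uqcc3, a complex III assembly factor, was highest at 1.36, and Lrpprc, which stabilises mitochondrial mRNAs, was lowest at -0.58. Ndufa4, a complex IV subunit despite its name, stood at 0.86 and was chosen for mention after its value was seen. Differences between these lists were not tested, and with library totals their directions shift with the median of all genes.

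In the authors' deposited table of WAM-enriched transcripts, 38 of these genes appear among 1160. There each value is WAM TPM divided by the mean ratio of the mitochondrially encoded genes and set as a percent of lysate TPM. The median in the authors' deposited table was 12.4% for the 38 genes and 15.4% for all 1160. Cox6a1 was highest of the 38 at 21.2% and Uqcrc1 lowest at 6.76% in the authors' deposited table. Being listed there is not the same as being called higher here. The authors' deposited table holds Atp5b at 8.72% and Atp5a1 at 8.16%, which the count test called lower, and lacks Cox6c, which it called higher at 1.01. Cox6a1 also led in the count test, which drew on the same libraries, while the lowest gene there was Atp5b.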

How the data were processed

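Estimated counts per Ensembl gene and TPM were deposited by the authors for 6 WAM and 6 lysate libraries. The submitters' processing notes list the read trimmer fastp (0.12.4), the pseudoaligner kallisto (0.44.0), DESeq2 (1.20.0) and R (3.5.0), with no role for each. The build and annotation behind the counts were not given in the sources used here. Per the file headers, the authors' enrichment ratio divides WAM TPM by a coefficient from the mitochondrially encoded genes and sets it against lysate TPM. Another 60 per-sample columns stayed unused.

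From 48042 lines, 1 per gene was kept (35498 genes). Counts were rounded, as 32.5% of the non-zero ones had decimals. The test was the quasi-likelihood F test of edgeR 4.0.16 (R 4.3.3, with limma 3.58.1), after TMM scaling and filterByExpr, adjusted by Benjamini-Hochberg over 11181 genes, with a threshold of 0.05. On simulated data it recovered 32.8% of 67 genes changed 1.5-fold, 71.6% of 67 changed 2-fold and 100% of 66 changed 4-fold. It made 5 false calls among the other genes. The data had far more called genes (6511 of 11181), a setting that the simulation did not cover. Alternatives were library totals, TMM without mitochondrially encoded genes, DESeq2 1.42.0, no filter, the mouse as a block, limma on log2 of TPM plus 1 or plus 0.1, each library left out, and mouse 5 left out. P-values rest on the spread among libraries within a fraction, and counting precision was set by the total counts given with the groups.

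Each count column is named by mouse and fraction, which pairs the libraries. Deviations from the group mean correlated at r = 0.45 to 0.77 between the 2 libraries of a mouse, and at no more than 0.40 between libraries of different mice. Replicates differed by more than sampling noise (chi-square per degree of freedom at least 12.2 for any pair in a group).

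The genes, lists and tests were chosen with earlier results of these data known. Genes given with all values are, per complex, the highest and lowest fold change and the most abundant in lysates, with Cycs, Cyc1, Atp5a1, Atp5b, the subunit c genes and the tissue isoform pairs of complex IV. Other members are named with a fold change or counts, and from other lists the highest and lowest are named. Complex, class and place were assigned from textbook knowledge. Positions, coding lengths, sequences and shared 31-base words came from GENCODE M21 (GRCm38), which need not be the authors' annotation. Words were found for 59 of the 61 genes, of which 18 shared none and 10 shared over 50%. Protein sequences were not used here.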

Additional observations from a re-analysis of the deposited data

Results flagged for a closer look

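Of 54 groups of 6 libraries examined (CPM of the genes given in full, and the shares of counts by complex), 7 had a library whose gap to its nearest neighbour, over the group's range, passed Dixon's critical value; chance gives about 1 in 20. Uqcrc1 was 105.1 CPM in the lysate of mouse 5, against 129.9 to 143.0 CPM in the other lysates. Uqcrq was 249.1 CPM in the WAM library of mouse 2, against 193.8 to 207.9 CPM in the others. Cox4i1 was 385.1 CPM in the WAM library of mouse 1, against 349.3 to 361.1 CPM in the others. Complex III took 0.163% of counts (0.1628%) in the lysate of mouse 1, against 0.133% to 0.143% in the other lysates.

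The muscle isoforms set mouse 3 apart. Cox8b was 0.62 CPM (0.6248) in its WAM library and at 0 in the other WAM libraries, and 0.80 CPM (0.8003) in its lysate, against at most 0.09 CPM in the other lysates. Cox6a2 was 1.44 CPM in its lysate, against at most 0.09 CPM in the others. All 3 rest on few counts, and muscle markers were highest in the same mouse.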

How the results depend on the processing

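Of the 4 tested genes with a mean of at most 10 CPM (Cox11, Cox18, Atp5g2 and Atp5s) 1 was called, with SE of 0.14 to 0.23, against 34 of 47 and 0.07 to 0.16 above it. The largest dependence was on scaling. With library totals 503 genes were called higher and 8652 lower, and of the nuclear genes 1 and 44; with limma on TPM plus 1, 56 and 9570, and of the nuclear genes 0 and 50; with TPM plus 0.1, 55 and 9569, and of the nuclear genes 0 and 50. Limma on TPM shifted the median of all genes by -1.14 and -1.46. Relative to that median, library totals left 31 nuclear genes higher and 0 lower (3130 and 2717 over all 11181 genes). TPM plus 1 left 13 and 5 (3130 and 3314 over all genes), so the nuclear genes were not called higher more often than genes in general. TPM plus 0.1 left 26 and 0 (2862 and 2104 over all genes). TPM plus 1 gave complex medians of -0.22 (II), 0.25 (III), 0.33 (IV) and -0.0838 (V). It turned the sign of Sdhd (-0.0211), Atp5d (-0.18), Atp5o (-0.0838), Cox7a2l (-0.0276) and Cycs (-0.0279). Of these, Sdhd, Cox7a2l and Cycs still lay above the median of all genes, -0.08. TPM plus 0.1 turned Atp5b (0.016). Calls were lost for 16 further genes with TPM plus 1 and for 8 with TPM plus 0.1. The causes were not tested. The share ratio by TPM was 0.44 for Cycs and 0.68 for complex IV. With mitochondrially encoded genes left out, the ratio of complex IV was 1.01 by counts and 0.86 by TPM.

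With the mouse as a block 38 nuclear genes were called higher and 3 lower (33.5% and 36.2% of all genes); Sdhc, Cox10, Cox18, Atp5g1 and Atp5h were added above and Uqcrc1 below, and no call of the 51 was lost. DESeq2 gave 34 and 2, no filter 31 and 2, TMM without mitochondrially encoded genes 33 and 2, and leaving out mouse 5 gave 34 and 3. Leaving out 1 library gave 31 to 36 higher and 2 to 3 lower. It moved the complex II median between -0.01 and 0.10, and the subunit c differences between 0.78 and 1.64 points (Atp5g1), between 0.23 and 0.64 points (Atp5g2) and between -2.11 and -1.08 points (Atp5g3). The p-values of subunit c shares with labels exchanged within mice (replicate block) were 0.329 for Atp5g1, adjusted, and 0.329 for Atp5g3 (exact permutation).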
